A study of Rattus norvegicus with 12 samples.

Results

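The amino acid transporters of the solute carrier families Slc1, Slc3, Slc7, Slc36, Slc38 and Slc43 were followed in neuron-like F11 cells over 2, 4, 24 and 48 h of forskolin. Every probe whose gene name in the array files begins with one of these family names, followed by the letter a and a number, was taken as a member, with the endings for predicted or mapped genes dropped. The rule gave 43 of the 41012 probes on the array, on 61 spots, for 34 of 35528 gene names. Of these, 20 probes for 18 genes were bright enough to be tested, among 17803 genes tested in all. The changes given next are after loess, a normalization explained below. By the brightest tested probe of each gene, Slc7a8, Slc7a3 and Slc1a5 were the genes with a called change of 0.5 or more on the log2 scale at any time, and in all of them the rise came between 4 and 24 h. By that probe, the means of the other 15 stayed under 0.4 in size at every time, while a second probe of Slc38a2 was called at 0.51 at 2 h and 0.53 at 4 h. The size limit does not hold with median centring in place of loess. Slc7a1, Slc38a2 and Slc3a2 were then called lower than the reference at every time, at -0.65 or below.

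F11 cells are a fusion of mouse neuroblastoma cells with sensory neurons of the rat dorsal root ganglion, and the binding of mouse transcripts to the rat probes was not tested. The 4 tested groups were F11 cells given 10 µM forskolin, which activates adenylyl cyclase and so raises cyclic AMP, for 2, 4, 24 or 48 h, with 3 samples each, and all cells had first spent 3 h in medium with 0.5% serum. The reference, present on all 12 arrays, was RNA of F11 cells taken after those 3 h in low serum with no forskolin, so no unstimulated cells of the later times were measured. Forskolin RNA was in the green channel (Cy3) and reference RNA in the red channel (Cy5) on every array, and nothing in the labels says whether the 3 samples of a time were separate cultures, so the spread behind each p-value may be technical only.

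The carriers differ in what they move and in what drives them. Members of Slc1 couple the uptake of glutamate, or of small neutral amino acids such as glutamine and serine, to sodium. In Slc7, the cationic amino acid transporters work alone and carry arginine and lysine, whereas the light chains exchange one amino acid for another and reach the cell surface only when bound to a heavy chain of Slc3. Slc38 carriers take up glutamine and other neutral amino acids with sodium. Slc36 carriers such as Slc36a1 move small amino acids with protons, often at the lysosome, and Slc43 carriers such as Slc43a2 move large neutral amino acids by facilitated diffusion. In neurons these proteins supply glutamine for transmitter glutamate, arginine for nitric oxide and polyamines, cystine for glutathione, and leucine for the signal to mTORC1.

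The results below rest on few probes per gene, and the probes that carry them are shown so that it is clear which stretch of each transcript was read. They are the 60-base probes of Slc7a8, Slc7a3 and Slc1a5, of the heavy chain gene Slc3a2, and both probes of Slc38a2, which disagreed in part. Each is given as the array files list it, in lower case.
Slc7a8: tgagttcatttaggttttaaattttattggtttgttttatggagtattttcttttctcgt
Slc7a3: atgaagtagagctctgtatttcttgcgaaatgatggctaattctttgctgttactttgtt
Slc1a5: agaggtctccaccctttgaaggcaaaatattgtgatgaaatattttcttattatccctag
Slc3a2: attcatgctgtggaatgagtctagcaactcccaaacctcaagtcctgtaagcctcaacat
Slc38a2: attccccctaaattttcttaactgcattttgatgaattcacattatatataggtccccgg
Slc38a2, second probe: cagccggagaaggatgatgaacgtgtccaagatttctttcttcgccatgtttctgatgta
In build rn3, named in the file headers, the Slc7a8 probe lay at chr15:32816651-32816710, the Slc7a3 probe at chrX:89233121-89233180, the Slc1a5 probe at chr1:77203043-77203102 and the Slc3a2 probe at chr1:211534958-211535017. The Slc1a5 probe was listed on the plus strand and the Slc7a8, Slc7a3 and Slc3a2 probes on the minus strand, by the order of their coordinates. The Slc38a2 probes lay on the minus strand at chr7:135441972-135442031 and chr7:135446583-135446642, with 4611 bases between their starts. Exon annotation of that build was not used here.

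Of the 43379 spots that are no controls, an array read 19889 to 21973 above background with forskolin RNA and 19504 to 23285 with reference RNA. Of the 43 probes, 12 were read in both channels on every array, 19 in neither channel on any array and 12 on some arrays. A probe counts here as well above background when the scanner's own flag says so in a channel. In the forskolin channel 15 to 18 of the 43 probes were well above background on an array, against 15 to 21 in the reference channel. Averaged over the 3 arrays at 24 h these were 40.3% of the probes in the forskolin channel and 43.4% in the reference channel, against 46.0% and 49.0% of all probes of the array. Slc7 had 6 of its 14 probes well above background in both channels on all 12 arrays, those of Slc7a1 (both probes), Slc7a3, Slc7a5, Slc7a6 and Slc7a8, and 7 on no array in either channel. Slc38 had 3 of 9 such probes (Slc38a1 and both of Slc38a2), Slc1 had 1 of 10 (Slc1a5), Slc3 had 1 of 2 (Slc3a2), Slc43 had 1 of 4 (Slc43a2) and Slc36 had 0 of 4.

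**Figure D1:**
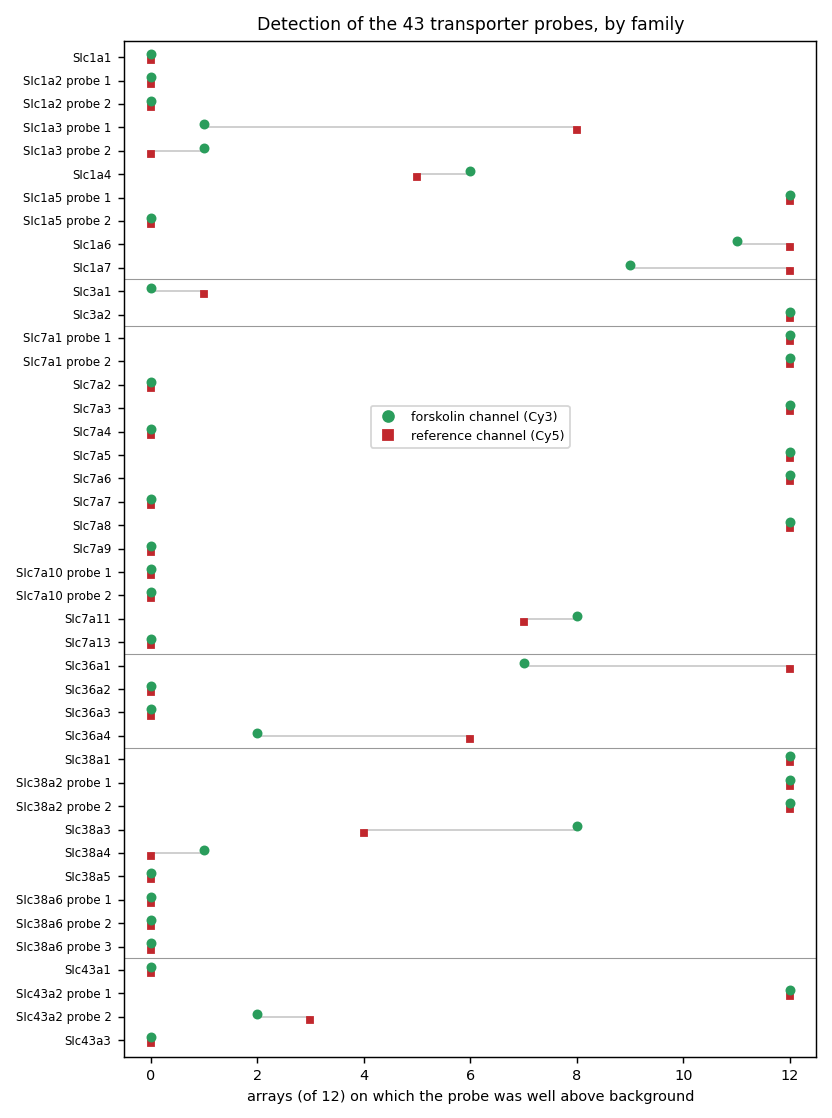
Number of the 12 arrays (x axis) on which each of the 43 transporter probes (rows, grouped by family) was well above background, in the forskolin channel (green circles) and in the reference channel (red squares). Of the 43 probes, 12 sit at 12 in both channels and 19 at 0 in both, the glutamate carriers Slc1a1 and Slc1a2 among the 19.

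The 16 untested genes include carriers known from neurons and glia as well as carriers known from other tissues. The glutamate transporters Slc1a1, the main neuronal form, and Slc1a2, the main astrocyte form, were above background on no array in either channel. The same held for the cationic transporter Slc7a2, for Slc7a4, for the light chains Slc7a7, Slc7a9, Slc7a10 and Slc7a13, for Slc36a2 and Slc36a3, for Slc38a5 and Slc38a6, and for Slc43a1 and Slc43a3. Slc3a1, the heavy chain of the renal and intestinal cystine carrier, was above background on 0 arrays in the forskolin channel and 1 in the reference channel, and Slc38a4 on 1 in the forskolin channel and 0 in the reference channel.

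A member was tested if, on each of the 3 arrays of at least 1 time, it was well above background in 1 channel or both, and the brightest such probe stood for its gene. Values are given as the log2 of forskolin over reference after background correction and loess, a smooth fit that removes a trend of the ratio with brightness, and a call is an adjusted p under 0.05 in limma with Benjamini-Hochberg adjustment over all 17803 genes. At 2 h, 3 of the 18 transporters were called higher and 1 lower, which is 22.2%, against 28.3% of all genes called either way (10.0% higher and 18.3% lower). At 4 h, 5 were higher and 2 lower (38.9%), against 49.6% of all genes (19.5% higher and 30.1% lower). At 24 h, 5 were higher and 3 lower (44.4%), against 53.3% of all genes (24.1% higher and 29.2% lower). At 48 h, 6 were higher and 3 lower (50%), against 57.2% of all genes (26.9% higher and 30.3% lower). The share of transporters called was below that of all genes at each time, but with 18 genes the gaps cover few genes, and they were not tested. The median changes of the transporters over the 4 times, 0.05, 0.03, -0.02 and -0.0041, lay near the -0.02 to -0.03 of all genes.

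Changes of size were few. Called changes of 0.5 or more on the log2 scale among the 18 transporters were 1 fall at 4 h, 3 rises at 24 h and 3 rises at 48 h. Among all genes, called rises of that size made up 5.25% at 24 h and 7.10% at 48 h, and called falls 4.54% at 4 h. From 2 to 4 h, 1 transporter rose and 1 fell (11.1%), against 15.6% of all genes (5.55% higher and 10.1% lower at 4 h). From 4 to 24 h, 4 rose and 1 fell (27.8%), against 38.8% of all genes (21.0% higher and 17.8% lower at 24 h). From 24 to 48 h, 2 rose and 1 fell (16.7%), against 14.8% of all genes (8% higher and 6.79% lower at 48 h). Setting 24 and 48 h together against 2 and 4 h, 4 were higher and 4 lower (44.4%), against 50.4% of all genes (26.2% higher and 24.2% lower). By the F test of equal means over the 4 times, 6 of the 18 changed, Slc1a5, Slc38a2, Slc3a2, Slc7a3, Slc7a6 and Slc7a8, against 53.3% of all genes.

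**Figure D2:**
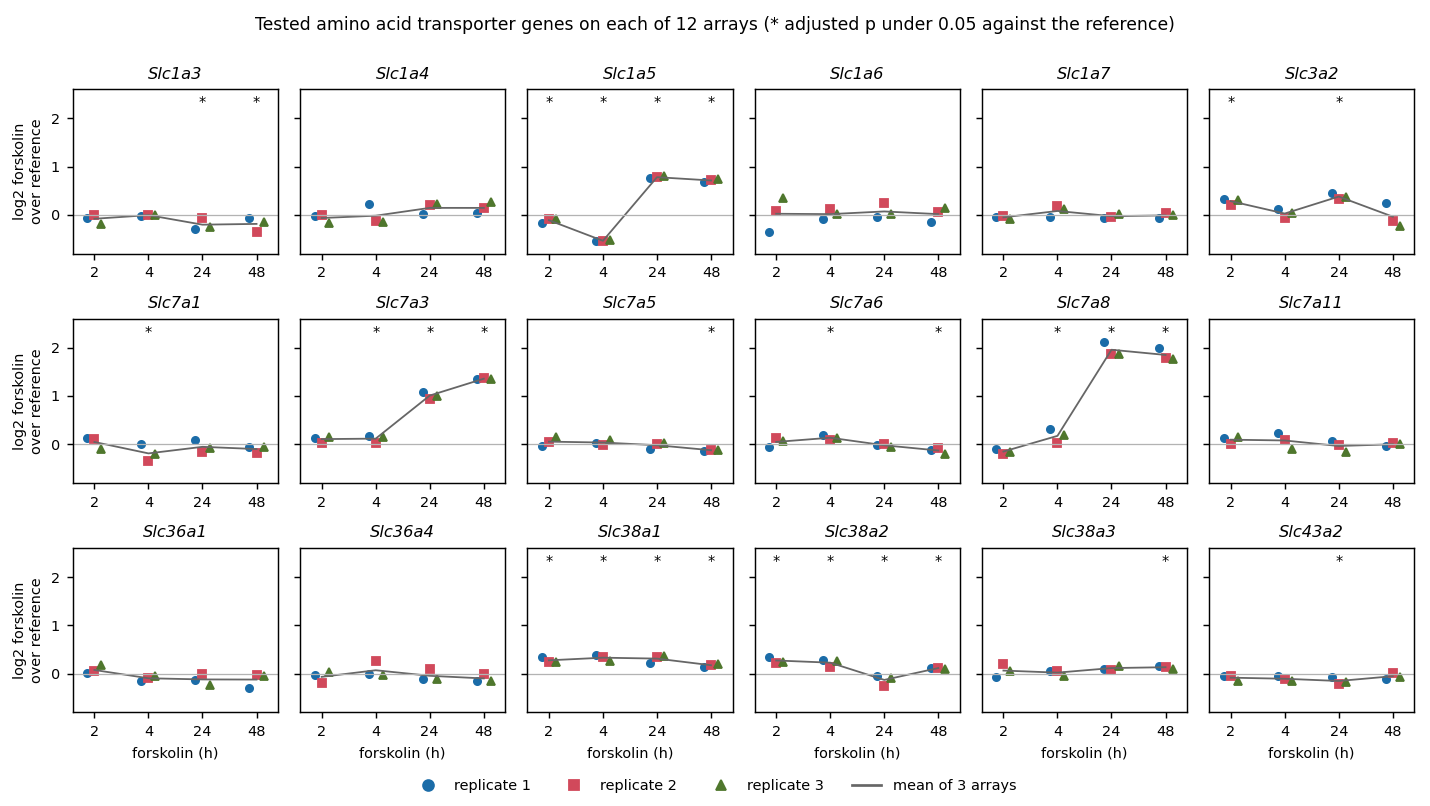
Log2 ratio of forskolin over reference (y axis) at 2, 4, 24 and 48 h of forskolin (x axis, not to scale) for the 18 tested transporter genes, with a point for each array by replicate number, a line through the means of 3 arrays and a star where the change against the reference was called after loess. Slc7a8, Slc7a3 and Slc1a5 are apart from the other genes at 24 and 48 h. With median centring in place of loess, the ratios of Slc1a5 at both late times and of Slc7a3 at 24 h lie below 0.

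Directions against the reference depend on loess, and those between times much less so. In the alternative without loess, each array was centred on the median of all its spots that are no controls, dim ones included. The median of all tested genes, a brighter set, was then -0.57, -0.58, -0.45 and -0.46 at 2, 4, 24 and 48 h. The dim Slc1a7, with no call after loess, stood 0.41, 0.60, 0.33 and 0.33 above it. A place above this median therefore does not by itself show a rise. With that centring 1.6%, 2.4%, 4.1% and 5.5% of called genes were higher, against 35.3%, 39.3%, 45.2% and 47.0% after loess. Of the 18 transporters, 0, 0, 1 and 1 were then higher and 10, 10, 9 and 8 lower. From 4 to 24 h the same centring moved the median of all genes by only 0.07, and 4 transporters were higher and 0 lower. The dye orientation was the same on all arrays, so an effect of dye on a probe stays in its change against the reference and cancels between times. The position of an array on its slide changed with time in the same way on all 3 slides, so position and time cannot be told apart.

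Slc7a8 encodes LAT2, a light chain that exchanges large and small neutral amino acids, and after loess its transcript had the largest change of the 18 transporters. Its log2 ratios on the 3 arrays were -0.09, -0.20 and -0.16 at 2 h, 0.31, 0.03 and 0.18 at 4 h, 2.12, 1.88 and 1.87 at 24 h, and 2.00, 1.78 and 1.77 at 48 h. All 6 late arrays lay above all 6 early ones, by far more than the replicates differed. Late and early arrays lay apart, in either direction, in 25.8% of all genes tested and in 4 of the 18 transporters. The mean of Slc7a8 at 24 h was 1.96 ± 0.14 (SD, n = 3), 3.88-fold over the reference (adjusted p = 3.2e-11 in limma), and at 48 h it was 1.85 ± 0.13 (SD, n = 3), 3.60-fold (adjusted p = 2.6e-11 in limma). Of the 17803 genes, 9 had a higher mean at 24 h and 13 at 48 h. At 2 h the mean of -0.15 was not called (adjusted p = 0.10 in limma), but it was with the slide as a block (adjusted p = 0.013 in limma).

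The scanner signals of Slc7a8 show the same step without normalization. In the forskolin channel they were 89.8, 75.2 and 83.3 at 2 h, 98.4, 79.2 and 97.6 at 4 h, 388, 280 and 262 at 24 h, and 337, 261 and 308 at 48 h. In the reference channel of the same arrays they were 235, 182 and 190 at 2 h, 190, 174 and 180 at 4 h, 219, 207 and 191 at 24 h, and 246, 188 and 186 at 48 h. The forskolin signal thus rose late while the reference stayed within one range. The step from 4 to 24 h was 1.81, 1.85 and 1.69 on the 3 slides, with a mean of 1.78 ± 0.09 (SE, adjusted p = 4.1e-09 in limma), and from 24 to 48 h the differences of -0.12, -0.10 and -0.10 were not called.

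The early part of the Slc7a8 course was small and less firm. The mean of 0.17 at 4 h was called (adjusted p = 0.037 in limma), but without replicate 1 of 4 h it was 0.11 (adjusted p = 0.28 in limma) and without replicate 3 it kept its size with an adjusted p of 0.12 in limma. With median centring it was -0.18, which is 0.40 above the median of all genes. Under that centring Slc7a8 stood at 1.36 at 24 h and 1.22 at 48 h, which is 1.81 and 1.67 above the median of all genes. Over the 11 settings tried for 24 h, from median centring to Agilent's processed signals, its change ran from 1.36 to 2.77.

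Slc7a3 encodes CAT3, a cationic amino acid transporter that takes up arginine and lysine and is known chiefly from neurons in the adult. Its ratios were 0.14, 0.03 and 0.15 at 2 h, 0.18, 0.03 and 0.14 at 4 h, 1.07, 0.95 and 1.01 at 24 h, and 1.35, 1.38 and 1.35 at 48 h. The 3 arrays of 48 h lay above the 3 of 24 h, and these above all early arrays. The means were 1.01 ± 0.06 at 24 h (SD, n = 3, 2.01-fold, adjusted p = 3.0e-10 in limma) and 1.36 ± 0.02 at 48 h (SD, n = 3, 2.56-fold, adjusted p = 1.0e-11 in limma). It also rose from 24 to 48 h, by 0.28, 0.43 and 0.34 on the 3 slides and 0.35 ± 0.06 on average (SE, adjusted p = 0.0014 in limma), unlike Slc7a8 and Slc1a5, for which that step was not called. Whether the steps of these genes differ was not tested.

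With median centring Slc7a3 was at -0.16 at 24 h and 0.13 at 48 h, neither called, which is 0.28 and 0.58 above the median of all genes. Its step from 4 to 24 h was 0.89 ± 0.06 after loess (SE, adjusted p = 6.0e-08 in limma) and 0.94 with median centring (adjusted p = 4.9e-05 in limma). The 48 h over 24 h step was not called with median centring (0.29, adjusted p = 0.52 in limma). At 2 h Slc7a3 averaged 0.11, called with the slide as a block (adjusted p = 0.044 in limma) but not without it (adjusted p = 0.077 in limma). At 4 h Slc7a3 averaged 0.12 (adjusted p = 0.035 in limma), a call lost without replicate 1 of 4 h (0.09, adjusted p = 0.21 in limma) or without replicate 3 (0.11, adjusted p = 0.15 in limma).

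Slc7a1 encodes CAT1, the cationic amino acid transporter found in most dividing cells, and it had no called rise. Its ratios were 0.13, 0.10 and -0.09 at 2 h, 0.00, -0.35 and -0.21 at 4 h, 0.09, -0.16 and -0.08 at 24 h, and -0.06, -0.17 and -0.06 at 48 h. The 4 h mean of -0.19 was called (adjusted p = 0.030 in limma), but the arrays of 4 h overlapped those of the other times. The call was lost without replicate 2 of 4 h (-0.11, adjusted p = 0.28 in limma) or without replicate 3 (-0.18, adjusted p = 0.12 in limma). A second probe, 6172 bases away by its start, gave -0.19, -0.13 and -0.08 at 4 h, with a mean of -0.13 that was not called (adjusted p = 0.096 in limma). With median centring Slc7a1 was -1.01, -1.25, -0.97 and -1.06 at the 4 times, which is 0.43, 0.67, 0.52 and 0.60 under the median over all genes and called lower at each. With the slide as a block, the difference of -0.24 between 4 and 2 h was called (adjusted p = 0.038 in limma, against 0.11 without the block).

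Slc1a5 encodes ASCT2, a sodium-dependent exchanger that brings in glutamine, and it was the one member that changed by more than 0.5 in both directions. Its ratios were -0.17, -0.08 and -0.08 at 2 h, -0.54, -0.54 and -0.52 at 4 h, 0.76, 0.78 and 0.81 at 24 h, and 0.67, 0.73 and 0.74 at 48 h. The 4 h arrays lay below all others, and the 24 and 48 h arrays above all early ones. At 4 h it fell by 0.53 ± 0.01 (SD, n = 3, 1.45-fold lower than the reference, adjusted p = 5.4e-08 in limma). It averaged 0.78 ± 0.02 at 24 h (SD, n = 3, 1.72-fold, adjusted p = 6.7e-10 in limma) and 0.71 ± 0.04 at 48 h (SD, n = 3, 1.64-fold, adjusted p = 1.0e-09 in limma). A second probe of Slc1a5 was above background on no array in either channel, so this course rests on a single probe.

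The step of Slc1a5 from 4 to 24 h was 1.31, 1.32 and 1.32 on the 3 slides, a mean of 1.32 ± 0.05 (SE, 2.49-fold, adjusted p = 4.4e-10 in limma). Scanner signals in the forskolin channel were 1314, 1311 and 1350 at 4 h and 3483, 3430 and 2940 at 24 h, while the reference channel read 6942, 6255 and 5827 on the 4 h arrays and 7005, 6629 and 5826 on the 24 h arrays. With median centring the step was 1.36 (adjusted p = 4.5e-07 in limma). The levels against the reference, however, were then -0.34 at 24 h and -0.45 at 48 h (adjusted p = 0.0037 and 0.00029 in limma), which is 0.10 and 0.00 above the median of all genes. At 2 and 4 h it was then -1.32 and -1.71 (adjusted p = 1.5e-10 and 4.5e-12 in limma), or 0.74 and 1.13 under the median over all genes. Slc1a5 was thus higher late than early under both scalings, and its late direction against the reference turned with the scaling. The small fall at 2 h (mean -0.11, adjusted p = 0.039 in limma) was lost in 8 of 12 ways to leave out 1 array, among them each array of 2 h (-0.08, -0.12 and -0.12 without replicate 1, 2 and 3, adjusted p = 0.22, 0.079 and 0.088 in limma).

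**Figure D3:**
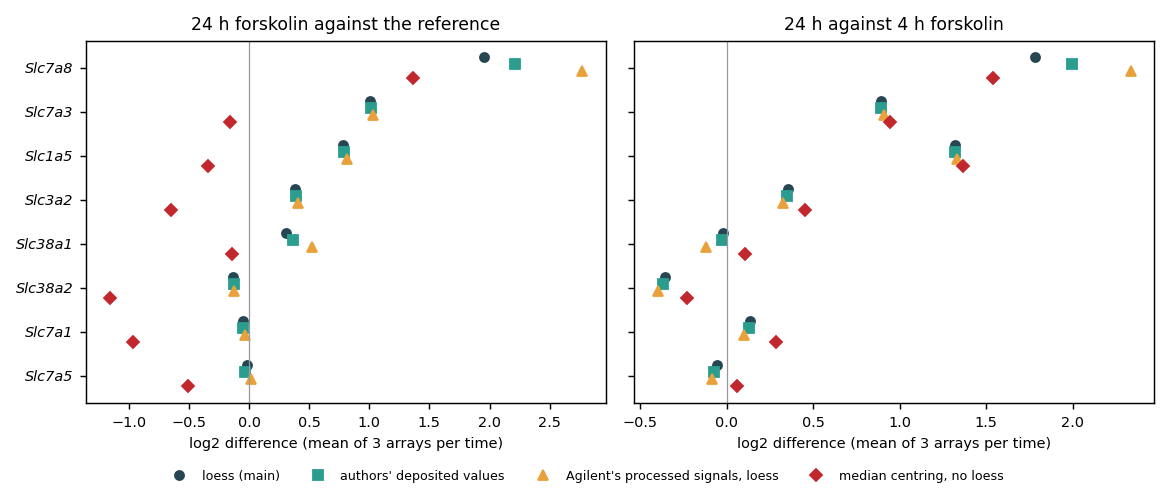
Log2 difference (x axis) of 8 transporter genes for 24 h of forskolin against the reference (left) and for 24 h against 4 h of forskolin (right), each point a difference of means of 3 arrays, under loess, the authors' deposited values, Agilent's processed signals with loess, and median centring without loess. Against the reference Slc7a3, Slc1a5, Slc3a2 and Slc38a1 turn below 0 with median centring, and against 4 h Slc7a8, Slc7a3, Slc1a5 and Slc3a2 stay above 0 under all 4.

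The other neutral exchanger of the family, Slc1a4 (ASCT1), was read on few arrays. Its ratios were -0.02, 0.00 and -0.17 at 2 h, 0.23, -0.13 and -0.14 at 4 h, 0.02, 0.20 and 0.22 at 24 h, and 0.04, 0.14 and 0.27 at 48 h, with no call against the reference. Its probe was well above background on 0, 1, 2 and 3 of the 3 arrays of 2, 4, 24 and 48 h in the forskolin channel, and on 2, 2, 1 and 0 in the reference channel. A single channel was above background on all 3 arrays only at 48 h, with forskolin RNA, so the value and p below are a description. The late times stood above the early ones by 0.19 ± 0.07 (SE, adjusted p = 0.044 in limma). The groups overlapped, and 8 of the 12 ways to leave out 1 array ended this call, as did the slide as a block (adjusted p = 0.051 in limma).

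Among the glutamate carriers of Slc1, Slc1a3, the astrocyte and Schwann cell transporter GLAST, was the one with a call, at the limit of detection. Its probe entered the test through the reference channel of the 24 h arrays, and at no other time was it above background on all 3 arrays in either channel. The values and p below are therefore a description. Its ratios were -0.06, 0.01 and -0.19 at 2 h, -0.03, 0.01 and 0.01 at 4 h, -0.29, -0.06 and -0.25 at 24 h, and -0.06, -0.34 and -0.15 at 48 h. The arrays of 4 h lay above those of 24 and 48 h, and those of 2 h overlapped all others. At 24 h its probe passed the background flag on 0 of 3 arrays in the forskolin channel and on 3 in the reference channel, so the lower level is given as a bound, at least 1.15-fold (measured mean -0.20, adjusted p = 0.0096 in limma), and at 48 h, where 0 and 1 of 3 arrays were above background in the forskolin and reference channels, as at least 1.13-fold (measured mean -0.18, adjusted p = 0.014 in limma). A bound is set by the higher of the probe's own signal and the lowest signal well above background on each array. The bound at 24 h equals the measured ratio, and that at 48 h is close to it, so neither leaves room for noise. The call at 24 h was lost without replicate 1 or replicate 3 of 24 h (-0.16 and -0.17, adjusted p = 0.085 and 0.071 in limma), and that at 48 h without replicate 2 of 48 h (-0.11, adjusted p = 0.19 in limma). The mean ratios of Slc1a6 and Slc1a7, glutamate transporters of Purkinje cells and of the retina, lay between -0.05 and 0.08 over the 4 times, with no call.

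Slc3a2 encodes the CD98 heavy chain, the partner of Slc7a5, Slc7a6, Slc7a8 and Slc7a11. Its ratios were 0.34, 0.21 and 0.31 at 2 h, 0.12, -0.07 and 0.03 at 4 h, 0.46, 0.32 and 0.36 at 24 h, and 0.25, -0.13 and -0.22 at 48 h. It was higher on all 3 arrays of 2 h and of 24 h than on any array of 4 h, and the arrays of 48 h were spread over a wide range. It rose by 0.29 ± 0.07 at 2 h (SD, n = 3, 1.22-fold, adjusted p = 0.0090 in limma) and by 0.38 ± 0.07 at 24 h (SD, n = 3, 1.30-fold, adjusted p = 0.00045 in limma). The means of 0.03 at 4 h and -0.04 at 48 h were not called (adjusted p = 0.76 and 0.70 in limma). With median centring it was -0.87, -1.11, -0.65 and -1.09 at the 4 times, which is 0.30, 0.52, 0.21 and 0.64 under the median over all genes.

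From 2 to 4 h Slc3a2 differed by -0.22, -0.28 and -0.27 on the 3 slides (mean -0.26), which was called with the slide as a block (adjusted p = 0.030 in limma) but not without it (adjusted p = 0.11 in limma). From 4 to 24 h Slc3a2 rose by 0.33, 0.39 and 0.33 on the 3 slides (mean 0.35, adjusted p = 0.013 in limma), and by 0.45 with median centring (adjusted p = 0.014 in limma). From 24 to 48 h it fell on all 3 slides, by 0.21, 0.45 and 0.59 (mean -0.42, adjusted p = 0.012 in limma), and with median centring by 0.44 (adjusted p = 0.096 in limma). The late fall rested on single arrays, since without replicate 1 of 24 h, replicate 2 of 48 h or replicate 3 of 48 h it was -0.38, -0.37 and -0.32 (adjusted p = 0.051, 0.058 and 0.056 in limma). Likewise the call at 2 h was lost without replicate 1 or replicate 3 of 2 h (0.26 and 0.28, adjusted p = 0.052 and 0.057 in limma), and the step from 4 to 24 h without replicate 2 of 4 h (0.30, adjusted p = 0.057 in limma).

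The other light chains did not share the rise of Slc7a8. Slc7a5 encodes LAT1, the leucine carrier of growing cells, and its ratios were -0.03, 0.04 and 0.15 at 2 h, 0.04, -0.01 and 0.09 at 4 h, -0.09, 0.00 and 0.04 at 24 h, and -0.14, -0.12 and -0.11 at 48 h. The 48 h arrays were below all others, with a mean that fell by 0.12 ± 0.01 (SD, n = 3, adjusted p = 0.024 in limma). Leaving out replicate 1, 2 or 3 of 48 h gave -0.12, -0.13 and -0.13 and ended the call (adjusted p = 0.086, 0.074 and 0.064 in limma). Slc7a6 encodes a light chain that exchanges cationic for neutral amino acids (y+LAT2). It was higher at 4 h, with ratios of 0.19, 0.08 and 0.14 (mean 0.14, adjusted p = 0.018 in limma), and lower at 48 h, with -0.11, -0.07 and -0.20 (mean -0.13, adjusted p = 0.021 in limma). With median centring Slc7a6 was -0.26 at 4 h and -0.41 at 48 h (adjusted p = 0.0039 and 5.3e-05 in limma), which is 0.32 and 0.04 above the median of all genes. Without replicate 1 or 3 of 4 h the first call was lost (0.11 and 0.13, adjusted p = 0.12 and 0.073 in limma), and without replicate 3 of 48 h the second (-0.09, adjusted p = 0.15 in limma).

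Slc7a11 encodes xCT, the cystine and glutamate exchanger that feeds glutathione synthesis. Its ratios were 0.13, 0.02 and 0.15 at 2 h, 0.24, 0.10 and -0.10 at 4 h, 0.06, -0.01 and -0.16 at 24 h, and -0.03, 0.02 and 0.01 at 48 h, with no call. All times overlapped. At 4 h it was called higher with Agilent's processed signals (0.96, adjusted p = 0.0027 in limma) and with no background correction (0.14, adjusted p = 0.013 in limma). On the arrays of 48 h its probe was well above background in neither channel, so no change can be read there.

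Slc38a1 encodes SNAT1, a glutamine carrier of neurons. By the probe that stood for each gene, after loess, it was the one transporter called higher at all 4 times. The second probe of Slc38a2 was also called higher at all 4 times. The ratios of Slc38a1 were 0.34, 0.24 and 0.24 at 2 h, 0.38, 0.34 and 0.27 at 4 h, 0.22, 0.34 and 0.37 at 24 h, and 0.13, 0.18 and 0.21 at 48 h. All 12 arrays were above 0, and the 3 arrays of 48 h lay below those of the other times. The means were 0.28, 0.33, 0.31 and 0.17 (adjusted p = 0.00042, 2.2e-05, 3.0e-05 and 0.0031 in limma), and neither the F test over the times (adjusted p = 0.14 in limma) nor the difference of -0.14 between 48 and 24 h (adjusted p = 0.16 in limma) was called. An effect of dye on this probe was not tested. With median centring the means were -0.25, -0.25, -0.15 and -0.29, which is 0.32, 0.33, 0.30 and 0.16 above the median of all genes. Slc38a1 was then called lower at 2, 4 and 48 h (adjusted p = 0.0053, 0.0058 and 0.0019 in limma).

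Slc38a2 encodes SNAT2, a neutral amino acid carrier whose transcript is known to rise when cells are starved of amino acids, and it was early high and late lower. The ratios of the probe used for the gene were 0.35, 0.22 and 0.25 at 2 h, 0.28, 0.13 and 0.27 at 4 h, -0.05, -0.25 and -0.09 at 24 h, and 0.13, 0.12 and 0.10 at 48 h. All 6 late arrays lay below all 6 early ones. Late against early it fell by 0.26 ± 0.05 (SE, adjusted p = 0.00034 in limma), and from 4 to 24 h by 0.33, 0.38 and 0.36 on the 3 slides (mean -0.36, adjusted p = 0.00059 in limma). The early rises of 0.27 at 2 h and 0.23 at 4 h were called (adjusted p = 0.00084 and 0.0010 in limma). With median centring the ratios were -0.91, -0.93, -1.16 and -0.98 over the 4 times, or 0.33, 0.35, 0.71 and 0.52 under the median over all genes. The step from 4 to 24 h was -0.23 (adjusted p = 0.30 in limma).

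The second probe of Slc38a2 gave higher ratios, 0.54, 0.50 and 0.47 at 2 h, 0.65, 0.49 and 0.46 at 4 h, 0.24, 0.10 and 0.28 at 24 h, and 0.26, 0.35 and 0.12 at 48 h. Its means of 0.51 at 2 h and 0.53 at 4 h were called (adjusted p = 2e-05 and 1.8e-06 in limma), as was that of 0.24 at 48 h (adjusted p = 0.0012 in limma). Its fall from 4 to 24 h, -0.33 ± 0.07 (SE, adjusted p = 0.0028 in limma), was close to that of the first probe. Against the reference at 24 h the probes were called in opposite directions, 0.20 for the second (adjusted p = 0.0048 in limma) and -0.13 for the first (adjusted p = 0.032 in limma over all probes). The level of Slc38a2 against the reference at 24 h is therefore uncertain in sign, and the first probe's call there was also lost without replicate 2 or replicate 3 of 24 h (-0.07 and -0.15, adjusted p = 0.29 and 0.055 in limma). At 48 h the first probe's mean of 0.12 (adjusted p = 0.046 in limma) was lost in 8 of 12 ways to leave out 1 array (0.11 to 0.12, adjusted p = 0.051 to 0.13 in limma).

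**Figure D4:**
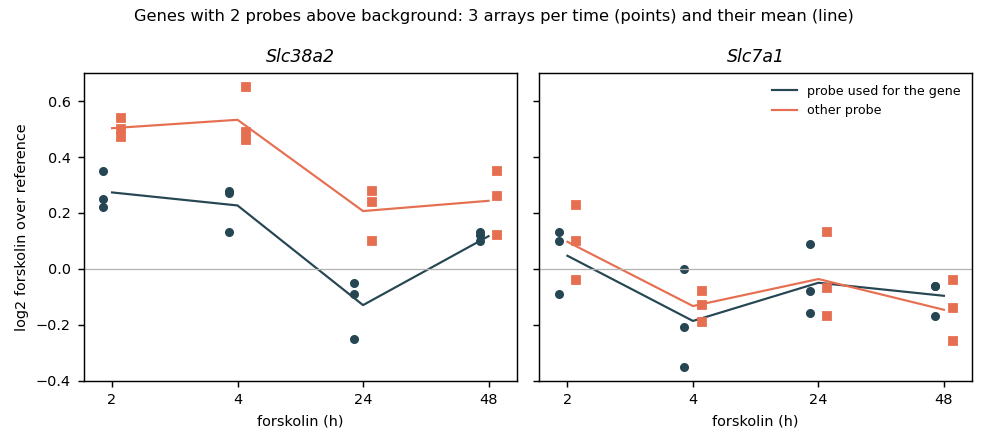
Log2 ratio of forskolin over reference (y axis) at 2, 4, 24 and 48 h (x axis, not to scale) for the genes with a pair of probes above background, each point an array and each line the mean of 3, after loess. The probes of Slc38a2 fall together from 4 to 24 h but lie on opposite sides of 0 at 24 h, and those of Slc7a1 overlap at every time. With median centring the probe used for Slc38a2 lies below 0 at all 4 times.

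Slc38a3 encodes SNAT3, a glutamine carrier known from astrocytes and liver. It was called higher at 48 h with ratios of 0.16, 0.14 and 0.10, where its probe passed the background flag on 2 of 3 arrays in the forskolin channel and on 0 in the reference channel, so the rise is given as at least 1.097-fold (adjusted p = 0.029 in limma). Without replicate 1 or 2 of 48 h it was not called (0.12 and 0.13, adjusted p = 0.11 and 0.10 in limma). The bound equals the measured ratio and leaves no room for noise.

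Of the tested Slc36 and Slc43 carriers, none had a called rise. Slc36a1, the lysosomal carrier PAT1, had ratios of 0.01, 0.05 and 0.18 at 2 h, -0.15, -0.09 and -0.05 at 4 h, -0.12, -0.01 and -0.23 at 24 h, and -0.30, -0.02 and -0.05 at 48 h, with no call. Slc36a4 (PAT4) had -0.03, -0.19 and 0.02 at 2 h, -0.01, 0.26 and -0.04 at 4 h, -0.11, 0.09 and -0.11 at 24 h, and -0.14, -0.01 and -0.15 at 48 h, also with no call. Other background treatments called both lower at 48 h. With Agilent's processed signals Slc36a1 was -1.04 and Slc36a4 -1.01 (adjusted p = 0.0022 and 0.0051 in limma), and with no background correction -0.18 and -0.10 (adjusted p = 0.00079 and 0.040 in limma). At 24 h Slc36a1 was also called lower by these 2 treatments and with median centring (-0.60, -0.11 and -0.22, adjusted p = 0.040, 0.022 and 0.020 in limma). In the forskolin channel, the probe of Slc36a1 was above background on 3, 1, 2 and 1 of 3 arrays at 2, 4, 24 and 48 h, and that of Slc36a4 on 1, 1, 0 and 0. In the reference channel these were 3, 3, 3 and 3 for Slc36a1 and 3, 0, 2 and 1 for Slc36a4. The 48 h ratio of Slc36a4 thus sets signals near background against each other. Slc43a2 encodes LAT4, which lets out large neutral amino acids, and its ratios were -0.05, -0.05 and -0.15 at 2 h, -0.04, -0.11 and -0.16 at 4 h, -0.07, -0.22 and -0.17 at 24 h, and -0.11, 0.01 and -0.06 at 48 h. With the slide as a block its mean of -0.11 at 4 h was called (adjusted p = 0.046 in limma), and without it was not (adjusted p = 0.058 in limma). The mean of -0.15 at 24 h was called (adjusted p = 0.0093 in limma) but not without replicate 2 or replicate 3 of 24 h (-0.12 and -0.14, adjusted p = 0.088 and 0.053 in limma).

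Promoter sequences of the rat assembly GRCr8 were taken from RefSeq for 26 of the 34 genes, from 250 bases before to 50 after the listed start. Slc1a5 and Slc7a3 were not among the 26. Those of Slc7a8, with the largest rise, of its partner Slc3a2 and of the light chain gene Slc7a5, which did not rise, are shown to set the courses above beside the letters in front of each gene, with matches to the motifs in capitals.
Slc7a8: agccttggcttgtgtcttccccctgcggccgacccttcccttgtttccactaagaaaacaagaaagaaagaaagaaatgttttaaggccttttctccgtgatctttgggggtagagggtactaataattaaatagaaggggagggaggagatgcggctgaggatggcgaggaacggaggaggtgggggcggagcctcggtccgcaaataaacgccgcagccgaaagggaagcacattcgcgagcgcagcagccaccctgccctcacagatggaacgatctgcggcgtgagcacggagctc
Slc3a2: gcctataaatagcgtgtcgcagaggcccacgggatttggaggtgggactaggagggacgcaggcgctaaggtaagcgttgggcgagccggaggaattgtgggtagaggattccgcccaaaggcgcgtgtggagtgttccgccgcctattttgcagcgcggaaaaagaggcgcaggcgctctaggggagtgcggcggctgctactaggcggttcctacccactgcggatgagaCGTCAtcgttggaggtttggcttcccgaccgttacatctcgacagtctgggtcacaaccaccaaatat
Slc7a5: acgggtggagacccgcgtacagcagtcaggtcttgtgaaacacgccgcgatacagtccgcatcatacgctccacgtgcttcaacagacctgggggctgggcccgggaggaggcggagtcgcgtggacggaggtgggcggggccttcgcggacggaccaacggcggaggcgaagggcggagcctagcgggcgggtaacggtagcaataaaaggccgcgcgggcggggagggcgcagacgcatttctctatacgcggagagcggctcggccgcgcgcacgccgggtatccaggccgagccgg
They lie on the minus strand at chr15:32212666-32212965, chr1:215048015-215048314 and chr19:66872363-66872662.

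The motifs searched on both strands were the cyclic AMP response element TGACGTCA, its short form TGACG, which the full site contains, the amino acid response element TGATGNAA, and the core of the antioxidant response element TGACNNNGC. The promoter of Slc7a8 held none of them, nor did that of Slc7a5, and that of Slc3a2 held a short form starting 18 bases before the start of the gene. The full cyclic AMP element was found in 1 of the 26 members' promoters, that of the untested Slc38a6, and in 1.83% of the 33469 promoters in the table. The short form was in 7 of the 26 and in 21.2% of all promoters, the amino acid response element in 3 (Slc1a4, Slc38a1 and Slc7a1) and in 3.98% of all, and the antioxidant core in 5 and in 12.1% of all. A match is a stretch of letters in this window and says nothing of whether a factor binds there.

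Genes that use or sense amino acids were set beside the carriers as fixed lists, with counts from the same fit and the same background. Of 24 tested targets of ATF4 and the amino acid response, 15 rose and 3 fell at 24 h against the reference (24.1% and 29.2% of all genes), with a median of 0.36 against -0.02 for all genes, and with median centring 3 were higher and 14 lower with a median of -0.50 against -0.45. Against 4 h, 15 were higher at 24 h and 3 lower (21.0% and 17.8% of all genes), and with median centring 11 and 0. Values of single genes in these lists are after loess. The members with the largest changes were Atf5, a transcription factor of the stress response (1.60 ± 0.04 at 48 h), Cebpb, a factor that cyclic AMP induces (1.53 ± 0.20 at 4 h), Ddit4, an inhibitor of mTORC1 (1.44 ± 0.07 at 24 h), and Atf3, which fell by 1.21 ± 0.08 at 48 h (SD, n = 3 each, adjusted p = 3.3e-11 to 7.2e-07 in limma).

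The list of glutathione, cystine and glutamate metabolism, which also holds the arginine genes, had 8 higher and 3 lower of 15 at 24 h (24.1% and 29.2% of all genes), and 9 higher and 3 lower at 48 h (26.9% and 30.3% of all genes). With median centring these were 3 and 8, then 1 and 9. Asl and Ass1, the enzymes that remake arginine from citrulline, reached 2.29 ± 0.15 and 1.097 ± 0.13 at 48 h (SD, n = 3 each, adjusted p = 2.5e-12 and 4.1e-09 in limma). The arginine carrier Slc7a3 was also highest at 48 h, and a link between these genes was not tested. Odc1, the first enzyme of polyamine synthesis, was at 1.58 ± 0.08 at 24 h (SD, n = 3) and fell by 1.09 from 24 to 48 h (adjusted p = 3.7e-06 in limma).

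Of 17 aminoacyl-tRNA synthetases, 10 were higher and 3 lower at 24 h, against 24.1% and 29.2% of all genes (0 and 16 with median centring), and 8 fell from 24 to 48 h, against 6.79% of all genes (0 with median centring). Their largest changes were in Aars1 (0.60 at 4 h), Tars1 (0.60 at 4 h), Qars1 (0.58 at 48 h) and Nars1 (0.54 at 4 h). Of 19 genes of amino acid sensing and mTORC1, 9 rose and 2 fell from 4 to 24 h, against 21.0% and 17.8% of all genes (7 and 1 with median centring). Tfeb, a factor for lysosome genes, was 0.62 higher at 24 h than at 4 h, Nprl3, a subunit of the GATOR1 complex that restrains mTORC1, was 0.81 higher, and Flcn, the folliculin gene, was 0.97 lower, while Rragd, a Rag GTPase of the lysosome, was highest at 48 h (0.67). Among 9 tested carriers of other families, 1 rose and 4 fell at 24 h, against 24.1% and 29.2% of all genes (0 and 7 with median centring). At 48 h, 4 were higher and 3 lower, against 26.9% and 30.3% of all genes (0 and 7 with median centring). Slc25a22, a mitochondrial glutamate carrier, fell by 0.71 at 4 h. In the same list Slc32a1, which loads vesicles with inhibitory transmitters, was at -0.33, Slc25a15, the mitochondrial ornithine carrier, at -0.23 and Slc15a4, a lysosomal peptide carrier, at -0.23 at 48 h, all called.

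The cells read as neuronal by their markers. All 12 neuronal markers, such as Prph and Tubb3, were well above background in both channels on all 12 arrays, against 1 of 7 Schwann and satellite glia markers (Sox10), 2 of 6 fibroblast markers (Col1a1 and Col1a2), 0 of 5 leukocyte and 0 of 4 endothelial markers. The glial markers S100b, Gfap and Erbb3 were above background on 0 arrays in either channel. In RNA of whole cultures, a change in the number of cells of a kind and a change in RNA per cell cannot be told apart.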

How the data were processed

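Each deposited file held one array as read by the scanner software, Feature Extraction 9.5.1.1 by its header, with the mean intensity and local background intensity of 45018 spots in 2 channels. The submitters' processing notes name limma; how the authors normalized the deposited log2 values is not stated in the sources used here. These values correlated with log2 green over red at -0.998 or below on each array, so they run as red over green, and were used with the sign turned as an alternative. Their column medians were 0.0067 to 0.012, and whether they were centred further is unknown. The well-above-background flags are those of the deposited files.

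Intensities were corrected by normexp (offset 50) and normalized within arrays by loess in limma 3.58.1 (R 4.3.3), with control spots at weight 0 and spots flagged as outliers left out. One mean per time was fitted to all 12 arrays (8 residual degrees of freedom). The common reference counts as 1 control sample, whose own spread is left out. The number of arrays limits the precision. In simulated ratios of 17803 genes, the 24 h test against the reference called 92% of 100 genes that had been changed by 0.5, and the test of 24 h over 4 h called 83%. The simulation changed only 100 further genes, by 1, and drew noise independently for each array. In the data 53.3% of all genes were called at 24 h, so these shares need not hold for the data. The members, lists and tests were chosen with earlier results of these data known. Genes with values on every array were those called at 0.5 or more with the same sign on all 3 arrays, and 19 listed genes whatever their value; from each list up to 4 called genes with the largest change were named (1 is not reported here), and Slc1a6, Slc1a7, Slc7a6 and Slc38a3 were added after their values were seen. Promoters were to be shown for Slc3a2, Slc7a5, Slc7a8 and the members with the largest rise and fall. Other genes were named through RefSeq of GRCr8 where matched; the transporters keep the names in the files.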

Additional observations from a re-analysis of the deposited data

Results flagged for a closer look

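The following transporters had changes that differed between times by the test of the difference itself (limma, Benjamini-Hochberg over all genes). Between 24 h and 4 h, Slc1a5 differed by 1.32 and Slc38a2 by -0.36, higher in 3 of 3 and lower in 3 of 3 pairs of arrays from a slide. Between 48 h and 24 h, Slc3a2 differed by -0.42, lower in 3 of 3 such pairs. Between the 2 late and the 2 early times, Slc7a8 differed by 1.89, Slc7a3 by 1.07, Slc1a4 by 0.19, Slc1a3 by -0.15, Slc7a5 by -0.12 and Slc7a6 by -0.17. In Slc7a8 and Slc7a3 all 6 late arrays were above all 6 early ones, and in Slc1a4, Slc1a3, Slc7a5 and Slc7a6 they overlapped. All 6 late arrays lay apart from all 6 early ones, above or below, in 22.2% of the transporters and in 25.8% of all genes tested. The probe of Slc1a3 was above background in the forskolin channel on 0, 1, 0 and 0 of 3 arrays at 2, 4, 24 and 48 h, and that of Slc1a4 on 0, 1, 2 and 3. The sizes given for these genes are therefore not measured differences between levels above background, and their calls are a description only. With 3 arrays a time, single arrays that stand apart within a group were not tested for.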

How the results depend on the processing

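Of 46 called results of single transporters, 9 kept their direction and call under all settings tried and without any 1 array, and a further 16 did so under all of these but median centring without loess. Of 17 called changes under 0.2 in size, 15 were lost without some 1 array. Median centring turned these directions against the reference, and the cause was not tested: at 2 h Slc38a1 -0.25, Slc38a2 -0.91, Slc3a2 -0.87, Slc7a1 -1.01, Slc7a3 -1.15, Slc7a5 -0.49 and Slc7a6 -0.26, at 4 h Slc1a6 -0.25, Slc38a1 -0.25, Slc38a2 -0.93, Slc3a2 -1.11, Slc7a3 -1.10, Slc7a5 -0.57, Slc7a6 -0.26 and Slc7a8 -0.18, at 24 h Slc1a5 -0.34, Slc38a1 -0.15, Slc3a2 -0.65 and Slc7a3 -0.16, and at 48 h Slc1a5 -0.45, Slc38a1 -0.29 and Slc38a2 -0.98. The mean of both Slc38a2 probes at 24 h was 0.037. With median centring limma called 13742 genes and 10 transporters at 2 h, 13894 genes at 4 h, 356 genes and 0 transporters between 4 and 2 h, 3358 genes between 24 and 4 h, 278 genes and 0 transporters between 48 and 24 h, 5179 genes and 3 transporters between late and early times, and 4528 genes by the F test. Transporters called were 1 between 4 and 2 h and 8 between 24 and 4 h with no background correction, 10 by the F test with Agilent's processed signals, and 4 at 48 h from the arrays of that time alone.

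With the replicate number, which is the slide, as a block, 4 transporters were called between 4 and 2 h. Over the 144 single results the block ended 1 call, that of Slc1a4 late against early, and added 5, those of Slc7a8 and Slc7a3 at 2 h, Slc43a2 at 4 h, and Slc3a2 and Slc7a1 between 4 and 2 h. Deviations of same-numbered arrays from their group means correlated at 0.05 to 0.47 over 18 pairs (median 0.22), and those of different numbers at -0.40 to 0.30 over 36 pairs (median -0.21). The number marks the slide per the file headers; no label says that it marks a shared culture. Leaving out 1 array at a time gave 2804 to 5518 called genes and 2 to 4 transporters at 2 h, 7126 to 9200 and 4 to 7 at 4 h, 7825 to 9832 and 5 to 9 at 24 h, and 8764 to 10272 and 5 to 9 at 48 h. Between 4 and 2 h it gave 1858 to 3080 and 1 to 3, between 24 and 4 h 5953 to 7227 and 4 to 7, between 48 and 24 h 1874 to 2739 and 1 to 3, between late and early times 8419 to 8941 and 5 to 7, and by the F test 8770 to 9542 and 6 to 8. Probes near background, those of Slc1a3, Slc1a4, Slc36a4, Slc38a3 and Slc7a11 among them, limit what can be read for their genes.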
